A study of Mus musculus with 62 samples.

Results

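The populations of primary mouse monocytes that the sample titles name class 2 and class 1 were compared with each other directly. The libraries were taken by their titles: 2 libraries of class 2 and 2 libraries of class 1, 4 of the 62 samples of the series. The study asked how far monocytes differ stably from one another, with RNA sequencing of paired progenitor and mature ER-Hoxb8 clones (progenitors kept dividing in culture by an estrogen-dependent Hoxb8 protein) and of primary monocytes. The other primary libraries were 2 each of class 3, class 4, nonclassical, intermediate and classical monocytes. They serve here to place the levels, class 3 and class 4 were also part of the fit, and all entered 1 alternative fit. Class 2 and class 1 cells alike had been isolated from bone marrow by flow cytometry, with no treatment in the labels, and their total RNA was sequenced in bulk. The labels give no gate, no definition of a class, no strain, age or genotype, and no statement that the replicates came from separate animals. The p-values below therefore measure only the spread between replicate libraries, pooled over the 4 classes, which may be technical.

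Monocytes arise in the bone marrow from dividing granulocyte-monocyte progenitors and monocyte progenitors, and most stop dividing before they leave for the blood. Classical monocytes carry high Ly6C and the chemokine receptor CCR2, whereas nonclassical monocytes carry high CX3CR1 and depend on the nuclear receptor NR4A1. Resident macrophages of the marrow, by contrast, are known for complement C1q, VCAM1 and the iron exporter ferroportin.

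The 4 libraries held 23.1 to 35.0 M counts (M, mega), and class 2 replicate 1 was the deepest. Levels are given as CPM, counts scaled to the same library total with TMM factors, and differences as log2 fold changes of class 2 over class 1 with their standard errors (SE). Counts of the 8 class libraries were fitted together with edgeR's quasi-likelihood test, and an adjusted p (Benjamini-Hochberg over all 13686 genes tested) under 0.05 was called. The monocyte label was checked on Csf1r (ENSMUSG00000024621), the M-CSF receptor of the monocyte lineage, which had 1896 and 2487 CPM in class 2, against 1923 and 1854 CPM in class 1. It was high in all 4 libraries, and its log2 difference of 0.21 (SE 0.152) did not pass the test (adjusted p = 0.448). Hoxb8, the gene of the fusion protein in the cultured clones, had 0 counts in the 4 libraries and was not tested. Reads were counted on Xist, and at most 1 read per gene on 4 Y-linked genes, in every library of both classes, so sex did not separate the groups. The Y-linked Eif2s3y and Uty had no counts.

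In class 2, 457 genes were higher and 815 were lower than in class 1, which is 3.34% and 5.95% of the genes tested (9.29% in either direction). Counts of list members below are to be read against these shares. At least 2-fold differences numbered 304 higher (2.22%) and 610 lower (4.46%), and the median over all tested genes was −0.00 on the log2 scale. Cell cycle genes were among them: every measured gene of a mitosis list was lower in class 2. All 3 chains of complement C1q were lower as well, as were 8 of 16 macrophage genes, 7 of 11 primary granule genes and 13 of 22 T and NK cell genes. The higher genes included Lars2, Thbs1, Stk24, Fosl2 and Trps1, with a few receptors and adhesion molecules of monocytes. Of the higher genes that averaged 3 log2 CPM or more, Lars2 had the largest rise. The CPM ranges of the classes did not overlap for any of the 1272 called genes, whereas among all tested genes 28.8% lay wholly higher and 29.6% wholly lower in class 2. Because the RNA is bulk, fewer cells of a type and less RNA per cell cannot be told apart. The 14 libraries with all subsets, fitted as 1 alternative, left 180 higher and 392 lower genes, and leaving out any 1 of the 4 libraries left 73 to 176 higher and 396 to 480 lower genes.

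**Figure D1:**
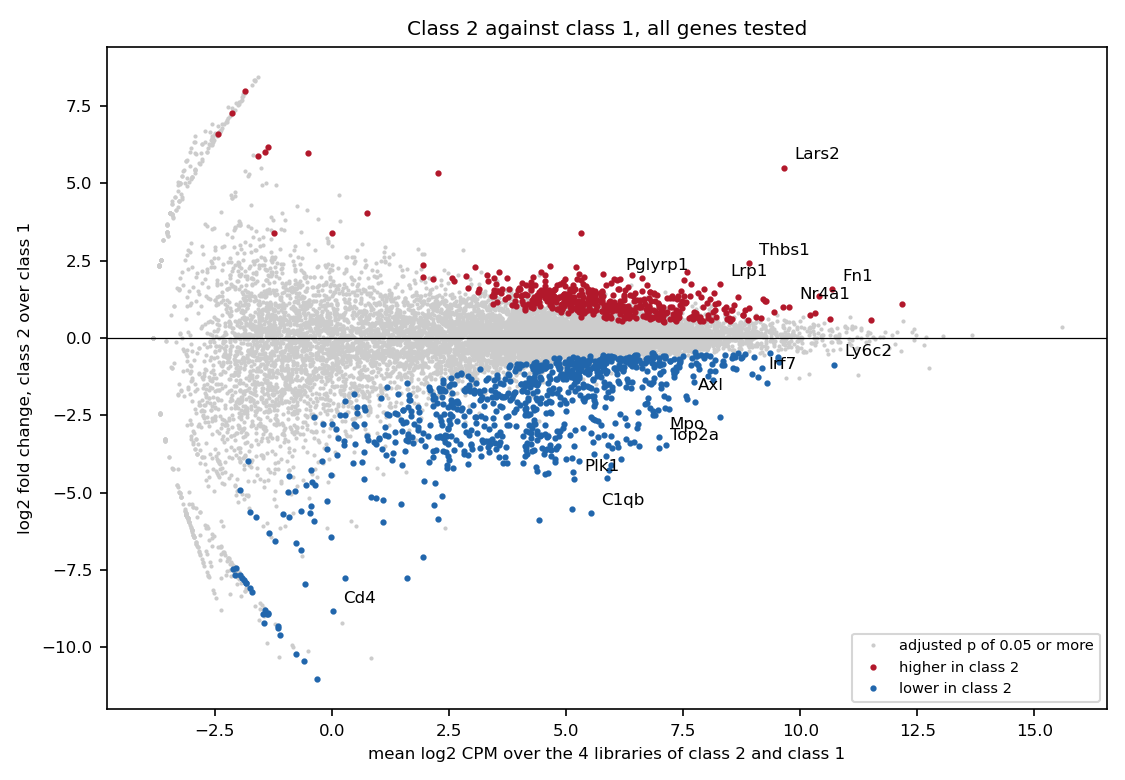
Log2 fold change of class 2 over class 1 (y axis) against the mean log2 CPM over the 4 libraries (x axis) for the 13686 genes tested, each gene 1 point. Red points are the 457 genes higher in class 2, blue points the 815 lower, and grey points those that did not pass. Points on the curved edges at the left are genes with no counts in a group, whose position is set by the prior count.

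Genes of mitosis were lower in class 2 without exception in the list used here. Plk1 (ENSMUSG00000030867), the kinase that drives mitotic entry and spindle assembly, had 7.55 and 7.25 CPM in class 2, against 164 and 184 CPM in class 1. Both class 2 libraries sat far below both class 1 libraries, and Plk1 fell by 4.55 on the log2 scale (SE 0.202, adjusted p = 1.86e-05). Nusap1 (ENSMUSG00000027306), a spindle microtubule protein, had 9.47 and 15.4 CPM in class 2, against 272 and 294 CPM in class 1 and fell by 4.52 (SE 0.244, adjusted p = 2.61e-05). Ccnb1 (ENSMUSG00000041431), cyclin B1 of the mitotic kinase, had 7.9 and 8.03 CPM in class 2, against 152 and 166 CPM in class 1 and fell by 4.32 (SE 0.141, adjusted p = 1.58e-05). In these genes, as in every called gene, the groups did not overlap, and each class 2 library was under each class 1 library by a wide margin. Ube2c (ENSMUSG00000001403), a ubiquitin-conjugating enzyme of the anaphase-promoting complex, had 12.4 and 15.1 CPM in class 2, against 263 and 268 CPM in class 1 (log2 −4.28). Prc1 (ENSMUSG00000038943), which bundles microtubules of the central spindle, had 12.4 and 17.8 CPM in class 2, against 248 and 268 CPM in class 1 (log2 −4.10). With all 14 primary libraries fitted together Ccnb1 no longer passed (adjusted p = 0.176).

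All 25 members of the mitosis list were lower in class 2, against 5.95% of all genes, with a median log2 difference of −3.47. The smallest difference was that of Ccnb2, cyclin B2, with 48.5 and 53 CPM in class 2, against 238 and 246 CPM in class 1 (log2 −2.25). Mki67, which encodes the proliferation antigen Ki-67, had 26.4 and 34.9 CPM in class 2, against 175 and 158 CPM in class 1, and Top2a, the DNA topoisomerase that separates sister chromatids, had 31 and 43.5 CPM in class 2, against 418 and 459 CPM in class 1. Neither gene overlapped between the classes, as held for every called gene, and class 2 still held measurable transcripts of both. Summed over the list, the level was 401 and 495 CPM in class 2, against 4513 and 4804 CPM in class 1. All 25 members were also called lower when any 1 of the 4 libraries was left out. In all 25 members the 2 class 2 libraries were the lowest of the 8 class libraries, whereas this held for 14.1% of all genes tested. Among lower genes that averaged 3 log2 CPM or more, the 15 with the largest change included 3 further mitotic genes. Kif2c, a microtubule-depolymerising kinesin, had 3.87 and 5.5 CPM in class 2 and 87.8 and 95.3 CPM in class 1. Fam64a, a regulator of the metaphase-anaphase transition, had 4.47 and 3.89 CPM in class 2 and 69.5 and 67.4 CPM in class 1. Kif18b, a kinesin of astral microtubules, had 5.63 and 4.04 CPM in class 2 and 80.2 and 94.1 CPM in class 1. Iqgap3, a scaffold protein linked to proliferation, had 2.83 and 3.31 CPM in class 2 and 51 and 50.1 CPM in class 1. With the 14 libraries fitted together, Kif18b (adjusted p = 0.0611) and Iqgap3 (adjusted p = 0.18) did not pass.

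Promoters of mitotic genes are known to carry a cell cycle homology region, with the core TTTGAA, bound by the DREAM and MuvB complexes, often beside CCAAT boxes bound by NF-Y. The promoters of the 5 mitosis members with the largest change are shown because the whole list was lower in class 2. Each runs from 250 bases before to 50 bases after the first listed start (RefSeq, GRCm38.p6), 5′ to 3′ on the gene's strand. Capitals mark TTTGAA and CCAAT on either strand, so that the reverse complements TTCAAA and ATTGG are in capitals too.
Plk1, chr7:122159185-122159484, plus strand: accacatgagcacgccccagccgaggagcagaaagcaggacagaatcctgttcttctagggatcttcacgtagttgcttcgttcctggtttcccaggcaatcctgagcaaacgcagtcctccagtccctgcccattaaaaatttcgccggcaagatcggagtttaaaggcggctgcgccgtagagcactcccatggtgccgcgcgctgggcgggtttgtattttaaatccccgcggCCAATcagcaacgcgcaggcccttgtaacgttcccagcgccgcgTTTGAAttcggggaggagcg
Nusap1, chr2:119618048-119618347, plus strand: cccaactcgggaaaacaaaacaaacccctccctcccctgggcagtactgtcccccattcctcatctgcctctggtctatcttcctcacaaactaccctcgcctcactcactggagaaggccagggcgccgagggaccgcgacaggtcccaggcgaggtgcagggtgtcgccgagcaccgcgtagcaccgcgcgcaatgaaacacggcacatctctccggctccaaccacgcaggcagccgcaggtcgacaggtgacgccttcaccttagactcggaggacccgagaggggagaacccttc
Ccnb1, chr13:100786437-100786736, minus strand: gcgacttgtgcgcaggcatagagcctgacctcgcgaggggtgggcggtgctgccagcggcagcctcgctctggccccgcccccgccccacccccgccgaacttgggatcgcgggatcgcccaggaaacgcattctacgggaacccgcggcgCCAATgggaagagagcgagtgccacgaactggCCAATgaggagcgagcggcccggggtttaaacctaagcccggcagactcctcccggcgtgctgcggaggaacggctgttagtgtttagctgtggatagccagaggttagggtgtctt
Ube2c, chr2:164769679-164769978, plus strand: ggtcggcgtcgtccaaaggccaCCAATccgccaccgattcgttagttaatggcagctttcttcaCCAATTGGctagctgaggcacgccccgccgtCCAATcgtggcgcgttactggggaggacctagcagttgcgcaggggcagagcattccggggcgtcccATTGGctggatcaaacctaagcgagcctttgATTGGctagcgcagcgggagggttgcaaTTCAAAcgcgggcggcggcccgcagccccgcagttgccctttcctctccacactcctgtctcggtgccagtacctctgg
Prc1, chr7:80294201-80294500, plus strand: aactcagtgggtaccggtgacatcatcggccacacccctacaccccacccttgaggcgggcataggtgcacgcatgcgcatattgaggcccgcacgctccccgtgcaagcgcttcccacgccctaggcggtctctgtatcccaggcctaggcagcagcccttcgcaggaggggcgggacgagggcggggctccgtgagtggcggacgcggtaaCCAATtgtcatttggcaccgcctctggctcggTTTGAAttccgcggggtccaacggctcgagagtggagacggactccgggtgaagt

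The Plk1, Ube2c and Prc1 windows hold 1 TTTGAA each, the Ccnb1 window holds 2 CCAAT boxes and no TTTGAA, and the Nusap1 window holds neither. In Ube2c, 2 of the 6 CCAAT matches overlap, as CCAATTGG reads as the box on both strands. Of the mitosis genes, 21 of 25 had a promoter in the RefSeq table, and 15 of the 21 (71.43%) hold TTTGAA, against 18.11% of all 27025 promoters. CCAAT occurs in 18 of the 21 (85.71%), against 37.92% of all promoters, and 15 hold both motifs. Over all genes of the comparison that had an entry, TTTGAA occurs in 25.26% of 582 promoters of genes lower in class 2, in 9.31% of 333 promoters of genes higher in class 2, and in 11.48% of 8267 promoters of tested genes that did not pass. These matches are a description of the letters in these windows.

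Genes of DNA replication followed, with 23 of 25 lower in class 2 and a median log2 difference of −2.38. Rrm2 (ENSMUSG00000020649), the regulated subunit of ribonucleotide reductase that makes deoxyribonucleotides, had 28.4 and 28.1 CPM in class 2, against 319.7 and 310.2 CPM in class 1. It fell by 3.48 (SE 0.139, adjusted p = 1.86e-05), with replicates that nearly coincide. Prim1, a DNA primase subunit, had 3.24 and 5.11 CPM in class 2, against 40.5 and 34.1 CPM in class 1 and fell by 3.17. Tk1, the S-phase thymidine kinase, had 7.08 and 7.5 CPM in class 2, against 60.6 and 69.7 CPM in class 1 and fell by 3.16. Among the helicase subunits Mcm2 to Mcm7, all 6 were lower, by 1.33 (Mcm4) to 2.69 (Mcm2). The sliding clamp Pcna differed less, with 86.5 and 88.7 CPM in class 2, against 156 and 158 CPM in class 1 (log2 −0.85, adjusted p = 0.00644), and was lost without class 1 replicate 1 (0.0517) or class 1 replicate 2 (0.0574). The 2 members that did not pass were E2f1, a transcription factor of S-phase genes, with 32.2 and 38.9 CPM in class 2, against 64.7 and 57 CPM in class 1 (log2 −0.78, adjusted p = 0.0583), and Ung, a uracil glycosylase, with 0.818 and 0.584 CPM in class 2, against 0.677 and 0.415 CPM in class 1. Leaving out 1 library left 20 or 21 members lower. The summed level was 633 and 713 CPM in class 2 and 2878 and 2770 CPM in class 1.

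Other growth-related lists had few calls. Of 20 ribosome biogenesis genes, 4 were lower (Dkc1, Nop58, Nop56 and Ncl) and the median was −0.35. Dkc1, the pseudouridine synthase of ribosomal RNA, had 35.6 and 27.5 CPM in class 2, against 64.8 and 65.4 CPM in class 1 (log2 −1.04, adjusted p = 0.00834). Dkc1 was lost without class 1 replicate 1 (0.0529) or class 1 replicate 2 (0.0578). Between 0 and 2 members were lower when 1 library was left out, and none without class 1 replicate 2. Of 20 cytosolic ribosomal protein genes none passed edgeR's test, none did in DESeq2, and 0 of them had an unadjusted p under 0.05. Their fold changes lay between −0.25 and 0.28 on the log2 scale. Of 23 nuclear genes of oxidative phosphorylation none passed edgeR's test, 3 were lower in DESeq2, 4 had an unadjusted p under 0.05, and the median was −0.26. Myc, the transcription factor of growth, had 16.8 and 31.1 CPM in class 2, against 58.7 and 64.6 CPM in class 1 (log2 −1.37, adjusted p = 0.0181), and was lost without class 1 replicate 1 (0.0815) or class 1 replicate 2 (0.116).

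**Figure D2:**
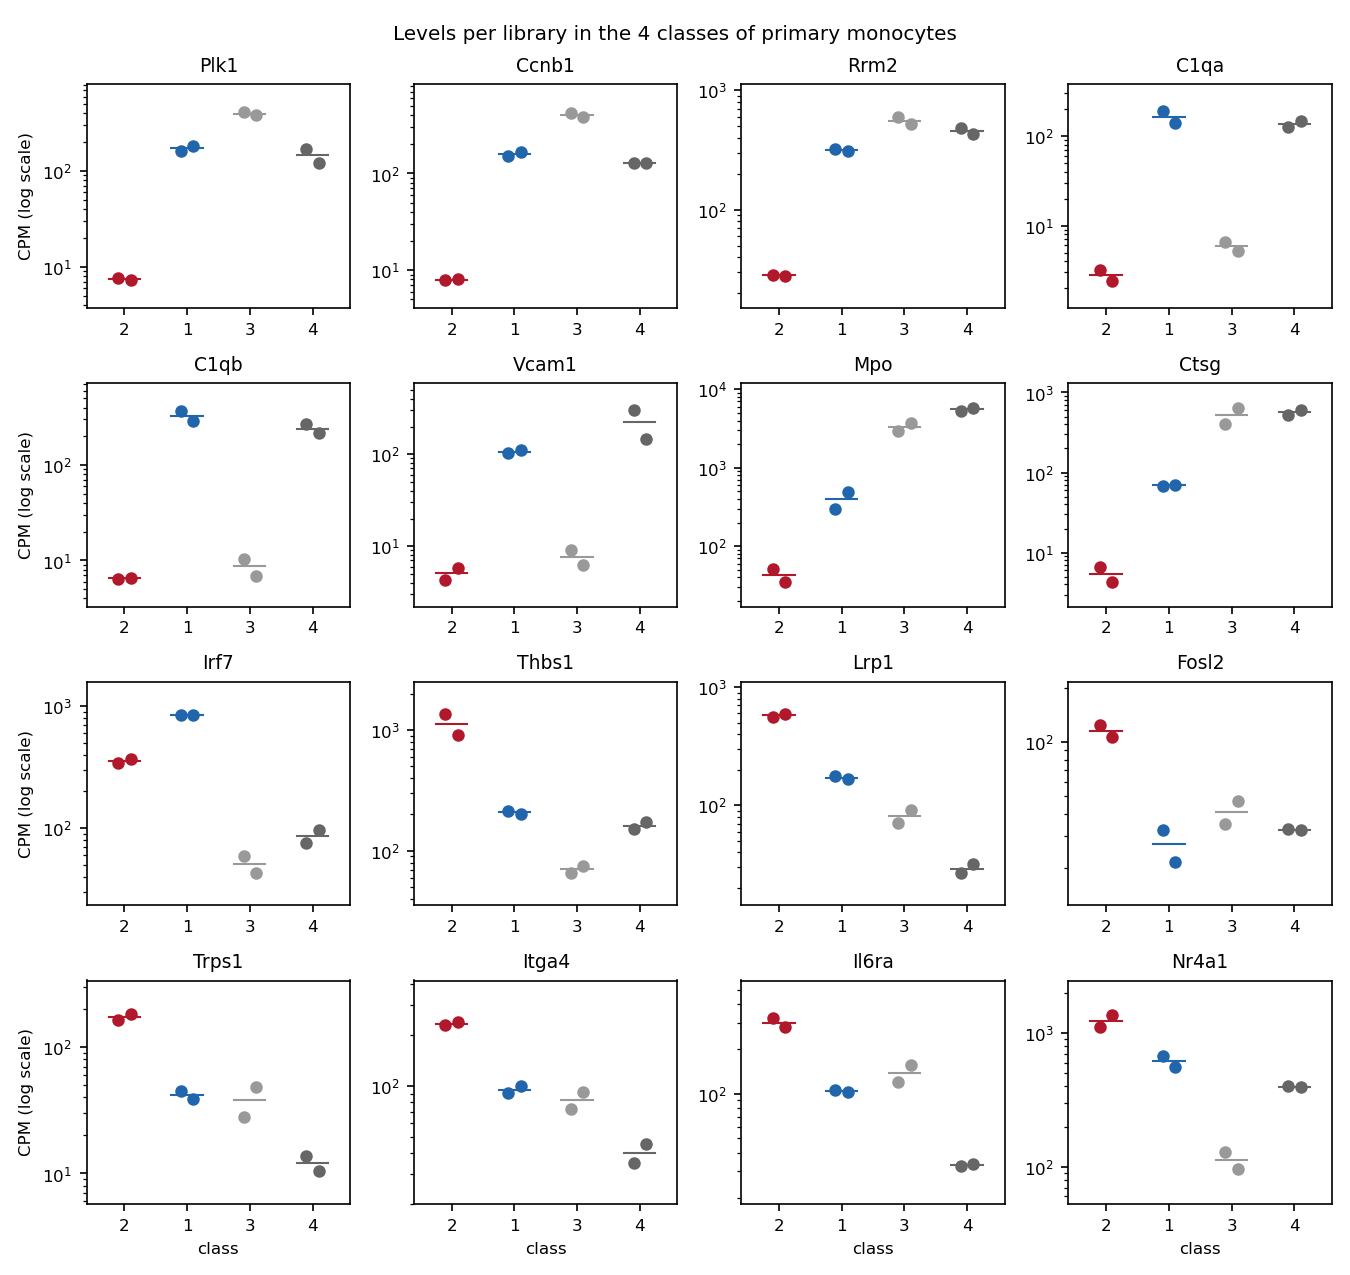
CPM (log axis) of 16 named genes in the 8 class libraries, 1 point per library, with the mean of each class as a line; class 2 stands left of class 1, followed by class 3 and class 4. Class 2 is the lowest class in Plk1, Ccnb1, Rrm2, C1qa, C1qb, Vcam1, Mpo and Ctsg, and the highest in Thbs1, Lrp1, Fosl2, Trps1, Itga4, Il6ra and Nr4a1.

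Of 16 genes of resident macrophages 8 were lower in class 2, among them all 3 chains of complement C1q, the recognition unit of the classical complement pathway. C1qa (ENSMUSG00000036887) had 3.18 and 2.38 CPM in class 2, against 189 and 142 CPM in class 1. It fell by 5.88 (SE 0.26, adjusted p = 1.86e-05), the largest change among the lower genes that averaged 3 log2 CPM or more. C1qb (ENSMUSG00000036905) had 6.42 and 6.62 CPM in class 2, against 367 and 290.2 CPM in class 1 (log2 −5.66, SE 0.264), and C1qc (ENSMUSG00000036896) had 5.95 and 4.38 CPM in class 2, against 276 and 205 CPM in class 1 (log2 −5.53, SE 0.384). Each chain was abundant in both class 1 libraries and scarce in both class 2 libraries. For C1qa, class 3 was near class 2 with 6.5 and 5.2 CPM, and class 4 was near class 1 with 127 and 148 CPM. Vcam1 (ENSMUSG00000027962), the adhesion ligand of the integrin VLA-4, had 4.34 and 5.84 CPM in class 2, against 103 and 109.8 CPM in class 1 (log2 −4.40, SE 0.386). Slc40a1 (ENSMUSG00000025993), which encodes ferroportin, had 4.31 and 6.62 CPM in class 2, against 115 and 108 CPM in class 1 (log2 −4.36, SE 0.361). As in every called gene, the ranges of these 2 did not overlap. Spic, a transcription factor of red pulp and marrow macrophages, had 3.46 and 2.68 CPM in class 2, against 31.3 and 35.5 CPM in class 1 (log2 −3.44). Axl, a receptor kinase that takes up apoptotic cells, was less different, with 76.3 and 122 CPM in class 2, against 407 and 365 CPM in class 1 (log2 −1.96). Fcna, ficolin A, a lectin of the complement system, had 3.46 and 3.07 CPM in class 2, against 56.3 and 52.1 CPM in class 1 (log2 −4.05).

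None of the 16 macrophage genes was higher, the median was −2.85, and leaving out any 1 library left 7 lower. The members that did not pass included Emr1, the gene of the F4/80 antigen, which had 283 and 377 CPM in class 2, against 306 and 278 CPM in class 1 (log2 0.17, adjusted p = 0.679). Mrc1, the mannose receptor, had 11 and 22.1 CPM in class 2 and 51.6 and 53.1 CPM in class 1, and Mertk, another receptor for apoptotic cells, had 2.27 and 0.876 CPM in class 2 and 10.9 and 7.96 CPM in class 1. Hmox1, haem oxygenase, had 189.8 and 234 CPM in class 2 and 229.5 and 249 CPM in class 1. Emr1 and Hmox1, at the highest levels of the list in class 2, differed least. Marco, a scavenger receptor, had no counts in class 2, against 1.91 and 3.47 CPM in class 1, and did not pass. The summed level was 611 and 801 CPM in class 2, against 2128 and 1877 CPM in class 1. Nr1h3, the oxysterol receptor LXR-alpha, had 2.3 and 1.61 CPM in class 2, against 26.2 and 23.2 CPM in class 1 (log2 −3.65, SE 0.404, adjusted p = 0.00109). Apoe, a lipid carrier of macrophages, did not pass, with 2445 and 2593 CPM in class 2, against 2892 and 2150.0 CPM in class 1 (adjusted p = 1).

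Primary granule genes, which are transcribed in progenitors and promonocytes, were lower in class 2 for 7 of 11 members, with a median of −2.66. Mpo (ENSMUSG00000009350), myeloperoxidase, had 50.5 and 34.8 CPM in class 2, against 302 and 489 CPM in class 1. It fell by 3.21 (SE 0.284, adjusted p = 0.000311), while class 3 had 2949 and 3754 CPM and class 4 5349.8 and 5799.7 CPM. Ctsg, cathepsin G, had 6.64 and 4.33 CPM in class 2, against 68.6 and 69.5 CPM in class 1 and fell by 3.64 (SE 0.28). Elane, neutrophil elastase, had 31.6 and 12.5 CPM in class 2, against 155 and 242 CPM in class 1 (log2 −3.16), and Ms4a3, a tetraspan protein of granulocyte-monocyte progenitors, had 2.01 and 1.36 CPM in class 2, against 12.1 and 20.4 CPM in class 1 (log2 −3.23). Both classes stood well below class 3 and class 4 in all of these. Igsf6, an immunoglobulin-superfamily receptor and the most expressed member not to pass, had 619 and 703 CPM in class 2, against 732 and 684 CPM in class 1 (adjusted p = 0.76). Leaving out 1 library left 6 or 7 members lower, and the fit of 14 libraries left 3, with Ms4a3 at 0.0997.

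Among 21 regulators and surface markers of progenitors and stem cells, 5 were lower in class 2 (median −1.05, and −1.21 with genes at 0 in a class set to their bound of 3 counts and those at 3 counts or fewer in both left out). Some members passed the filter only through class 3 or class 4. With the 4 libraries of class 2 and class 1 alone, 15 were tested and 5 were lower. Ly6a (ENSMUSG00000075602), which encodes Sca-1, had 6.01 and 7.15 CPM in class 2, against 48.9 and 60.4 CPM in class 1 and fell by 3.06 (SE 0.387, adjusted p = 0.00227). Cd34, the sialomucin of immature blood cells, had 2.58 and 6.77 CPM in class 2, against 19.1 and 12.7 CPM in class 1 (log2 −1.79, SE 0.456, adjusted p = 0.0487). The Cd34 call was lost without class 2 replicate 1 (0.195), without class 1 replicate 1 (0.239) without class 1 replicate 2 (0.111) and with 14 libraries (0.0873). Myb, a transcription factor of progenitors, had 1.98 and 8.03 CPM in class 2, against 19.7 and 24.9 CPM in class 1 (adjusted p = 0.0394), and was lost without class 2 replicate 1 (0.0515), class 1 replicate 1 (0.119) or class 1 replicate 2 (0.18). Kit, the stem cell factor receptor, was low in both, with 0.881 and 0.535 CPM in class 2, against 1.79 and 3.92 CPM in class 1, and did not pass (adjusted p = 0.0604). Irf8, the transcription factor that directs progenitors to the monocyte lineage, had 689 and 593 CPM in class 2, against 839.7 and 836 CPM in class 1 (log2 −0.39, adjusted p = 0.0903). Hoxa9 had no counts in either class. In the fits without 1 library 1 to 4 members of the list were lower, the fewest without class 1 replicate 2.

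Transcripts that define other blood cells were mostly low in both classes. Of 22 T and NK cell genes, 13 were lower in class 2 and none was higher. The median was −6.43, and −5.09 with the 7 genes at 0 in a group set to the bound of 3 counts. Those 7 had no counts in class 2 and passed the filter through other classes, so they could not be higher in class 2. With the 4 libraries of class 2 and class 1 alone, 19 members were tested and 17 were lower. Cd4, the T helper co-receptor that some macrophages and dendritic cells also carry, had 0 and 0.0487 CPM in class 2, against 11.4 and 10.8 CPM in class 1. It passed in every alternative run. Ccl5, a chemokine of T and NK cells, had 0.566 and 0.633 CPM in class 2, against 30.1 and 38.9 CPM in class 1, and Nkg7, a granule membrane protein of cytotoxic cells, had 1.32 and 0.487 CPM in class 2, against 19.2 and 30 CPM in class 1. Nkg7 is also on the list of primary granule genes. The summed level of the T and NK list was 9.76 and 14.7 CPM in class 2, against 145 and 194 CPM in class 1. Gzma, Ncr1, Trac, Cd8a, Cd8b1, Gzmb and Eomes had no counts in either class 2 library. Leaving out 1 library left 5 to 9 members of the list lower, the fewest without class 2 replicate 1, and the fit of 14 libraries left 4. Of the genes named, Gzma was lost without any 1 of the 4 (0.0694 to 0.122), Trac without class 2 replicate 1 (0.0888), class 2 replicate 2 (0.0784) or class 1 replicate 2 (0.073), and Ncr1 without class 2 replicate 1 (0.065) or class 2 replicate 2 (0.052).

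Other marker lists had fewer calls in edgeR's test. Of 21 B cell genes, 6 were lower, 20 had a negative fold change, and the median was −1.21. In edgeR's test 16 of them were lower at an unadjusted p under 0.05, and DESeq2 called 14 lower. Their sum was 765 and 1045 CPM in class 2, against 1639 and 2916 CPM in class 1. Ighm, the immunoglobulin mu chain, had 577 and 780.0 CPM in class 2, against 948 and 2335 CPM in class 1 and did not pass (adjusted p = 0.0827). Of 19 erythroid and megakaryocyte genes, 9 were lower and 1, Vwf, was higher, with a median of −2.79. DESeq2 called 10 of them lower and 2 higher. Their sum was 17.5 and 22.3 CPM in class 2, against 93.1 and 164 CPM in class 1. Pf4, platelet factor 4, had 0.283 and 0.195 CPM in class 2, against 17.8 and 12.6 CPM in class 1 (log2 −5.94, adjusted p = 0.000455), and Hbb-b1, a beta globin, had 2.64 and 5.4 CPM in class 2, against 24.6 and 55.7 CPM in class 1. Of 17 mast cell, basophil and eosinophil genes 4 were lower, and 6 were in DESeq2, with a median of −3.05. Their sum was 4.31 and 8.18 CPM in class 2 and 25.8 and 31.6 CPM in class 1. Several of the 17 passed the filter only through class 3 or class 4. With the 4 libraries of class 2 and class 1 alone, 8 of this list were tested and 5 were lower. Of 12 plasmacytoid dendritic cell genes 3 were lower (Cox6a2, Siglech and Ccr9), of 11 stromal genes 2 (Sparc and Cxcl12), and of 12 conventional dendritic cell genes none (edgeR, with 2 of them at an unadjusted p under 0.05 and 2 lower in DESeq2). Leaving out 1 library left 1 to 4 B cell genes, 3 to 7 erythroid genes, 1 to 3 basophil genes, 0 to 2 plasmacytoid genes and 0 stromal genes lower. The fewest B cell and erythroid genes were left without class 2 replicate 1, and the fewest basophil and plasmacytoid genes without either class 2 replicate 1 or class 1 replicate 2. The fit of 14 libraries left 2 B cell, 3 erythroid, 2 basophil, 0 plasmacytoid and 1 stromal gene lower. Vwf passed in none of the fits without 1 library (0.0692 to 0.175), and Hbb-b1 was lost without class 2 replicate 1 (0.0828) or class 1 replicate 2 (0.0519). The part of these other cells in the macrophage, granule and cell cycle differences was not tested.

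**Figure D3:**
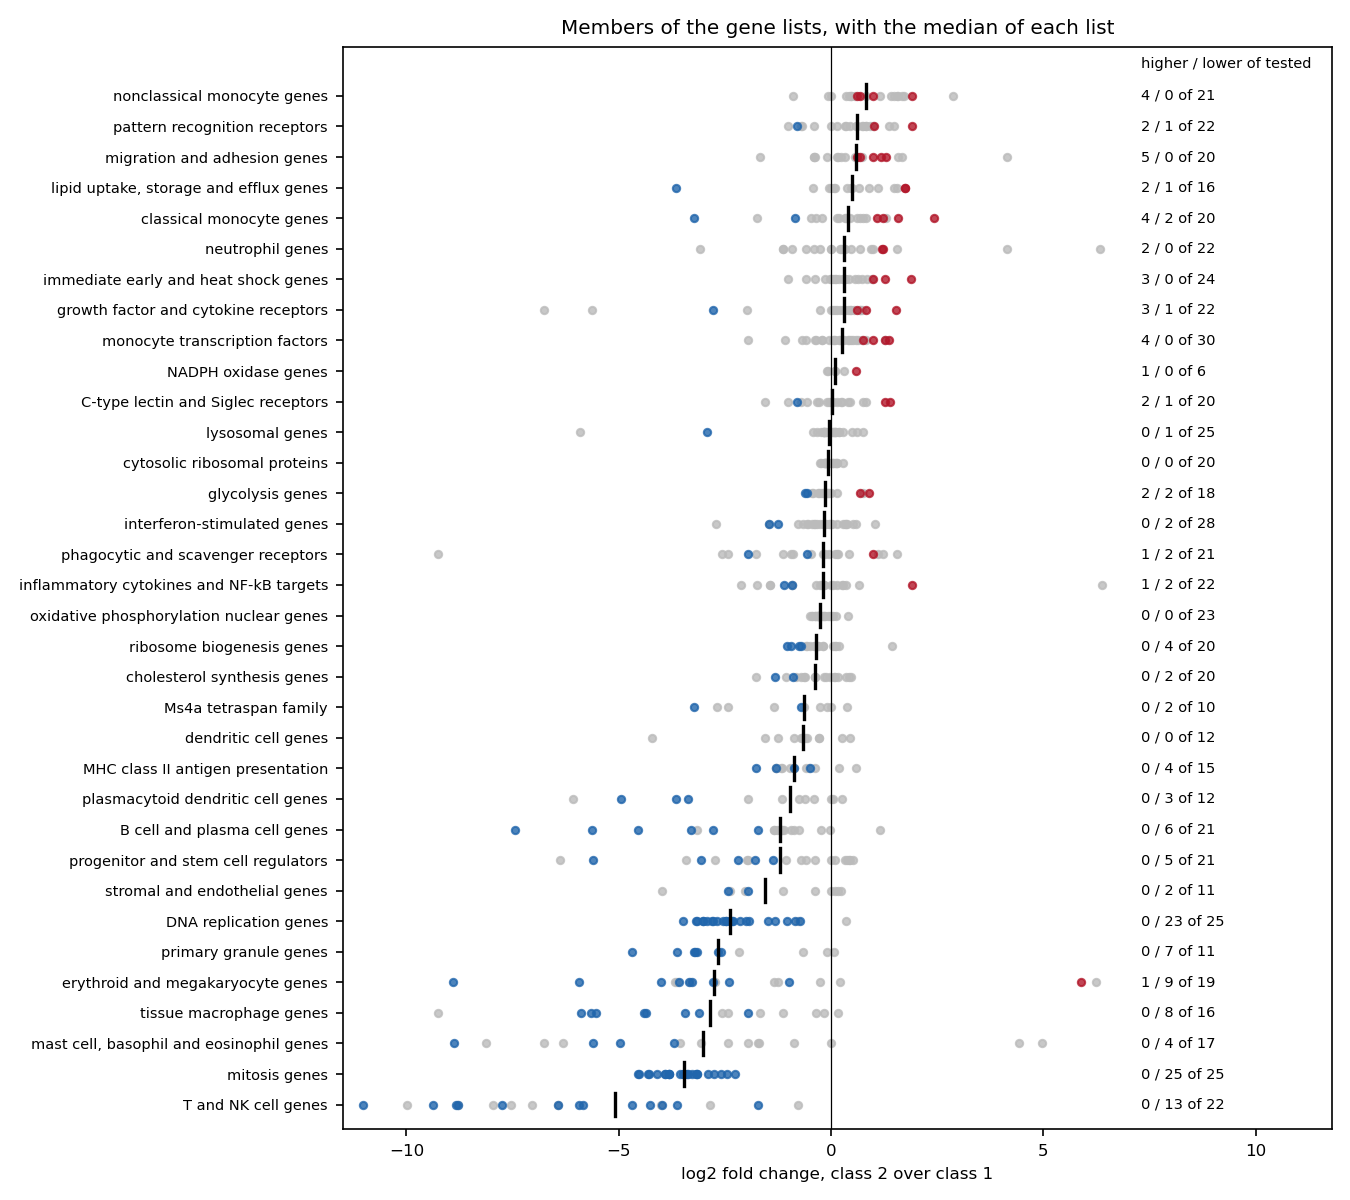
Log2 fold change of class 2 over class 1 (x axis) for the tested members of the gene lists, 1 point per gene, red where higher, blue where lower and grey where the gene did not pass. Black bars mark the median of each list, with genes at 0 in a group set to the bound of 3 counts, and lists are sorted by it; at the right stand the members higher and lower of those tested, 25 of 25 lower for mitosis.

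Neutrophil genes had few calls. Of 22 tested, 2 were higher in class 2, Cd177 and Padi4, and none was lower. DESeq2 called 3 higher and 1 lower, and the fit without a filter called 8 higher and 4 lower of 23. Cd177, a surface protein shared by neutrophils and classical monocytes, had 941 and 907 CPM in class 2, against 415 and 379.8 CPM in class 1 (log2 1.22, adjusted p = 0.0108). Padi4, which citrullinates histones, had 137 and 127 CPM in class 2, against 63.7 and 51.7 CPM in class 1 (log2 1.19, adjusted p = 0.0152). S100a8, a calprotectin subunit that is very abundant in neutrophils, had 95.5 and 164 CPM in class 2, against 73.7 and 148 CPM in class 1, and Ly6g, the neutrophil surface marker, had 0.157 and 0.195 CPM in class 2, against 0.119 and 0.226 CPM in class 1. When 1 library was left out, 0 or 1 member was higher, and with 14 libraries none was. Cd177 was lost without class 2 replicate 1 (0.0573), class 1 replicate 1 (0.0641) or class 1 replicate 2 (0.0966), and Padi4 without any 1 of the 4 (0.0572 to 0.127). The summed level was 2849 and 3178 CPM in class 2, against 1886 and 2615 CPM in class 1. It was 11883 and 7328 CPM in class 3 and 50437 and 70296 CPM in class 4.

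Markers of classical monocytes differed in both directions. Ly6c2 (ENSMUSG00000022584), the classical surface marker, had 1274 and 1252 CPM in class 2, against 2223 and 2339 CPM in class 1 and fell by 0.85 (SE 0.129, adjusted p = 0.00563). The call was lost without class 1 replicate 2 (0.0531) and with 14 libraries (0.066). Ccr2, the receptor for the chemokine CCL2, had 2485 and 2478 CPM in class 2, against 2118 and 1812 CPM in class 1, and F13a1, a coagulation factor subunit, had 3231 and 4444 CPM in class 2, against 3256 and 3494 CPM in class 1. Neither passed (adjusted p = 0.18 for Ccr2 and 0.601 for F13a1). Of 20 classical genes, 4 were higher in class 2 (Thbs1, Fn1, Cd177 and Chi3l3) and 2 lower (Ly6c2 and Ms4a3, the latter also on the primary granule and Ms4a lists), with a median of 0.40. When 1 library was left out, 1 to 4 were higher and 1 or 2 lower, the fewest without class 1 replicate 2, and with 14 libraries none of the 20 passed. Chi3l3 was lost without class 2 replicate 1 (0.0916) or class 1 replicate 2 (0.129). Fn1, fibronectin, had 1999.7 and 3806 CPM in class 2, against 957 and 992 CPM in class 1 (log2 1.57, SE 0.332, adjusted p = 0.024). Its class 2 libraries stood far apart from each other, and the call was lost without class 2 replicate 2 (0.116), class 1 replicate 1 (0.146) or class 1 replicate 2 (0.141). The sum over the list was 26880 and 25069 CPM in class 2, against 19057 and 16693 CPM in class 1.

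Of 21 nonclassical genes, 4 were higher in class 2, none was lower, 19 had a positive fold change, and the median was 0.82. Only 1 member was higher without class 2 replicate 2 or without class 1 replicate 2, 2 were without class 1 replicate 1 or with 14 libraries, and 4 were without class 2 replicate 1. Nr4a1 (ENSMUSG00000023034), the nuclear receptor that nonclassical monocytes need, had 1107 and 1357 CPM in class 2, against 680.1 and 554 CPM in class 1 (log2 0.997, SE 0.184, adjusted p = 0.014). Cx3cr1 (ENSMUSG00000052336), the fractalkine receptor, had 607 and 763 CPM in class 2, against 474 and 373 CPM in class 1 (log2 0.69, SE 0.177, adjusted p = 0.0489). Both genes were higher in both class 2 libraries than in either class 1 library, as was every gene called higher. Nr4a1 was lost without class 2 replicate 2 (0.0835) or class 1 replicate 2 (0.123), and Cx3cr1 without any 1 of the 4 (0.0651 to 0.285) or with 14 libraries (0.0729). Pglyrp1 (ENSMUSG00000030413), a peptidoglycan-binding antibacterial protein, had 123 and 133 CPM in class 2, against 36.7 and 30.8 CPM in class 1. It rose by 1.92 (SE 0.247, adjusted p = 0.00244). Class 3 had 80.7 and 54.9 CPM of Pglyrp1, and class 4, which also had the highest neutrophil sum of the classes, had 394 and 585 CPM. The fourth, Il10ra, encodes the interleukin 10 receptor and had 459 and 467 CPM in class 2, against 282 and 321 CPM in class 1 (log2 0.62, adjusted p = 0.0295), and was lost without any 1 of the 4 (0.112 to 0.218). Ace, angiotensin-converting enzyme, had 102 and 211 CPM in class 2, against 48.5 and 47.1 CPM in class 1 and did not pass (adjusted p = 0.159), nor did Emr4, Treml4 or Cd36. Class 2 was the highest of the 8 class libraries in 13 of the 21 genes, against 14.6% of all genes tested. This was not particular to nonclassical genes. It held for 7 of 20 classical genes, 11 of 22 pattern recognition receptors and 13 of 30 monocyte transcription factors. It held for only 2 of 20 C-type lectin and Siglec receptors and 0 of 10 Ms4a genes. Csf1r was itself lower in class 3 (759 and 742 CPM) and class 4 (236 and 209 CPM) than in class 2 and class 1.

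Antigen presentation genes of MHC class II were lower in class 2 for 4 of 15 genes, H2-Oa, H2-DMb2, H2-DMb1 and H2-DMa, with a median of −0.88. H2-DMb1, a chain of the peptide-loading chaperone H2-M, had 146 and 187 CPM in class 2, against 306 and 306 CPM in class 1 (log2 −0.88, adjusted p = 0.0235), and was lost without class 2 replicate 1 (0.149), class 1 replicate 1 (0.131) or class 1 replicate 2 (0.131). The abundant members did not pass: Cd74, the invariant chain, had 3841 and 6144 CPM in class 2, against 9995 and 9653 CPM in class 1 (log2 −0.98, adjusted p = 0.215). H2-Ab1, a beta chain, had 1308 and 1907 CPM in class 2, against 3762 and 3513 CPM in class 1 (log2 −1.18, adjusted p = 0.16). In both genes the class 2 libraries were below the class 1 libraries but far from each other. The sum was 10095 and 13342 CPM in class 2, against 20869 and 19866 CPM in class 1. Without class 2 replicate 1, or without class 1 replicate 2, no member passed, and without class 1 replicate 1 only 1 did. H2-DMa was lost without any 1 of the 4 libraries (0.132 to 0.241).

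**Figure D4:**
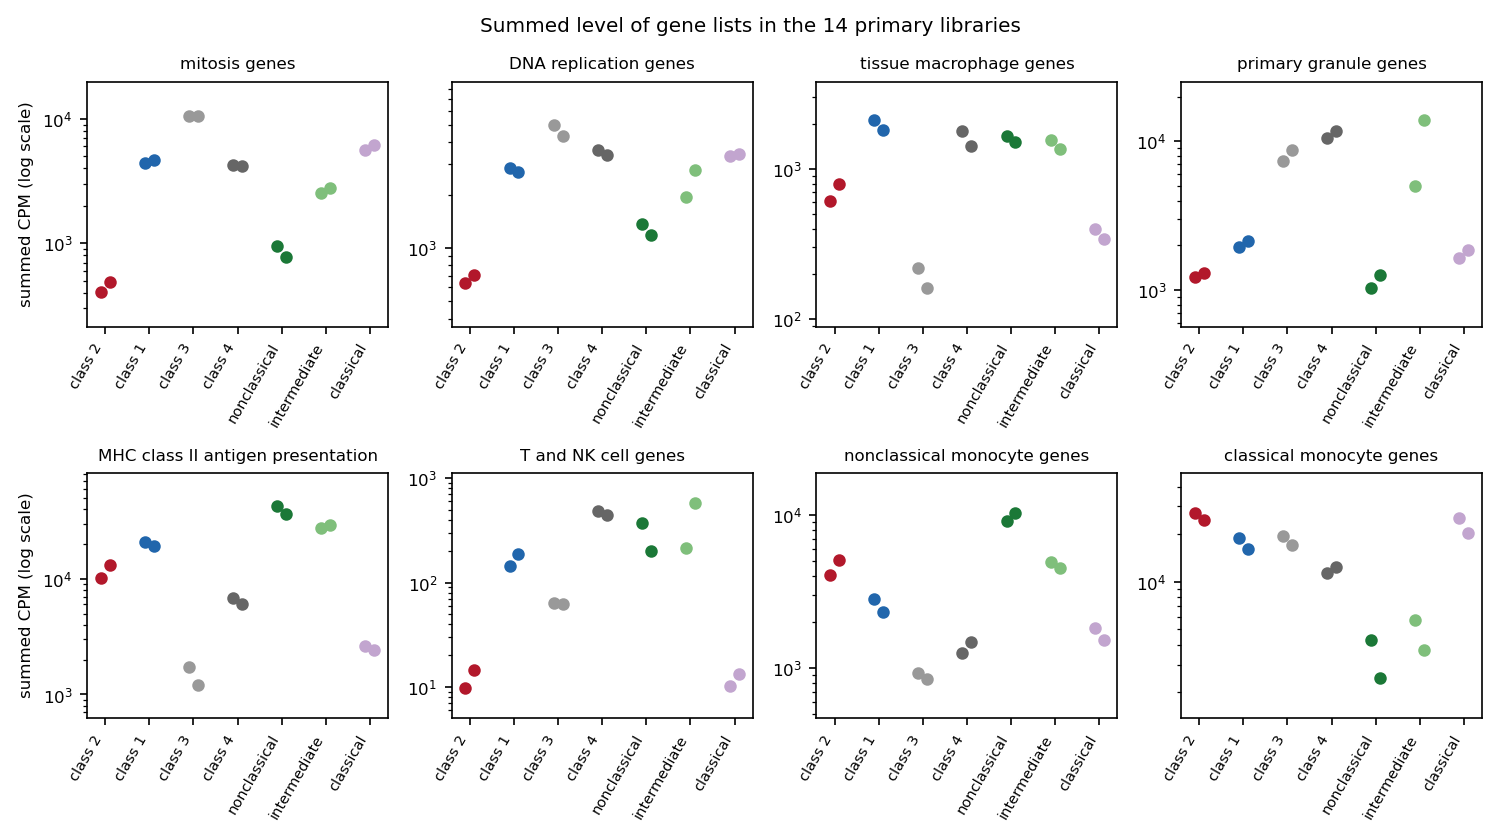
Summed CPM (log axis) of 8 gene lists in the 14 primary libraries scaled together, 1 point per library, class 2 left of class 1 and then the other groups. Class 2 has the lowest mitosis and DNA replication sums of all 14 libraries, and in nonclassical genes it lies between class 1 and the nonclassical libraries.

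Lars2 (ENSMUSG00000035202), a mitochondrial leucyl-tRNA synthetase, had the largest change among the higher genes that averaged 3 log2 CPM or more. Lars2 was uneven within class 2. It had 10498 and 2094 CPM in class 2, against 147 and 129.7 CPM in class 1 (log2 5.51, SE 0.725, adjusted p = 0.00273). Class 2 replicate 1 was far above class 2 replicate 2, and both were above class 1. Class 3 had 1247 and 2020 CPM, the latter near class 2 replicate 2, and class 4 had 423 and 508 CPM. Class 1 was thus the lowest of the 4 classes. The classical libraries, scaled with all 14, were high as well, with 13635 and 19954 CPM. Gm15564 and Mir5115, singled out after their values were seen, moved the same way, with 61.7 and 9.49 CPM and 223 and 66.4 CPM in class 2, against 0.916 and 0.83 CPM and 9.72 and 17.5 CPM in class 1. Removing all 3 before scaling changed the counts to 455 higher and 815 lower.

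Other genes higher in class 2 replicated more closely. Thbs1 (ENSMUSG00000040152), thrombospondin 1, a matrix glycoprotein of classical monocytes, had 1350.4 and 905 CPM in class 2, against 216 and 202 CPM in class 1. It rose by 2.43 (SE 0.203, adjusted p = 0.000237), and class 3 had 65.7 and 75 CPM and class 4 151 and 173 CPM. Stk24, a kinase of the sterile-20 family, had 64.5 and 48.2 CPM in class 2, against 12.2 and 10.3 CPM in class 1 (log2 2.32, SE 0.261). F5, coagulation factor V, had 74 and 90.3 CPM in class 2, against 18.6 and 14.9 CPM in class 1 (log2 2.29, SE 0.264). None of these overlapped between the classes, which the rule that named them required. Fosl2, a Fos-family transcription factor, had 124 and 106 CPM in class 2, against 32.7 and 21.7 CPM in class 1 (log2 2.08, SE 0.243). Trps1, a GATA-type transcriptional repressor, had 165 and 183 CPM in class 2, against 45 and 39.1 CPM in class 1 (log2 2.05, SE 0.272). Tle3, a Groucho-family corepressor, had 71.6 and 95.6 CPM in class 2, against 18.7 and 23.8 CPM in class 1 (log2 1.97, SE 0.267). Epn1, epsin 1 of clathrin-mediated endocytosis, had 85.9 and 72.4 CPM in class 2, against 19.4 and 18.4 CPM in class 1. With 14 libraries Thbs1 (0.0894) and F5 (0.394) were lost, whereas Stk24, Fosl2, Trps1, Tle3 and Epn1 passed in every alternative run.

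Among genes that averaged 3 log2 CPM or more, 15 were named for the largest rise. The remaining genes of these 15 were Bri3, Sipa1l3, Sepx1, Cyp2ab1, Arap3, Plekhg1 and Lyl1. Their log2 fold changes lay between 1.98 (Lyl1) and 2.29 (Bri3). Sepx1, a methionine sulfoxide reductase, had 535 and 292 CPM in class 2, against 106 and 81.2 CPM in class 1. Lyl1, a transcription factor of blood stem cells and myeloid cells, had 43.1 and 36.6 CPM in class 2, against 7.33 and 12.9 CPM in class 1. Each of these 7 lost its call when at least 1 of the libraries was left out, Sepx1 without class 1 replicate 2 (0.0768) and Lyl1 without class 2 replicate 1 (0.0573). For Bri3 this held without class 2 replicate 1 (0.0927), class 1 replicate 1 (0.0814) or class 1 replicate 2 (0.0574), for Arap3 without class 2 replicate 2 (0.126), class 1 replicate 1 (0.136) or class 1 replicate 2 (0.105), and for Sipa1l3 (up to 0.132), Cyp2ab1 (up to 0.1) and Plekhg1 (up to 0.161) without any 1 of the 4.

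Several surface molecules were higher in class 2. Lrp1 (ENSMUSG00000040249), a large endocytic receptor of lipoproteins and proteases, had 558 and 594 CPM in class 2, against 177 and 166 CPM in class 1. It rose by 1.75 (SE 0.162, adjusted p = 0.000406). Il6ra, the interleukin 6 receptor, had 321 and 279 CPM in class 2, against 106 and 103 CPM in class 1 (log2 1.53, SE 0.16, adjusted p = 0.000799). Lrp1 was 3.35-fold and Il6ra 2.88-fold higher in class 2. Itga4, the alpha chain of VLA-4, whose ligand VCAM1 is described above, had 228 and 238 CPM in class 2, against 90 and 99.5 CPM in class 1 (log2 1.30, SE 0.175). Cxcr4, the receptor that holds cells in the marrow, had 90.9 and 93.7 CPM in class 2, against 40.8 and 40.5 CPM in class 1 (log2 1.19, adjusted p = 0.00452), and was lost without class 1 replicate 2 (0.0572). Clec4a1, a C-type lectin receptor, had 256 and 260.1 CPM in class 2, against 105 and 108 CPM in class 1 (log2 1.28, SE 0.164). Itgam, which encodes CD11b, had 1040.3 and 1214 CPM in class 2, against 613 and 518 CPM in class 1 (log2 0.99, adjusted p = 0.0177), and was lost without class 2 replicate 2 (0.101), class 1 replicate 1 (0.0672) or class 1 replicate 2 (0.139). Of 20 migration and adhesion genes 5 were higher and none lower (median 0.60; 1 to 6 higher when 1 library was left out), and of 22 growth factor and cytokine receptors 3 were higher and 1, Il7r, lower (median 0.31; 1 to 3 higher and 0 or 1 lower when 1 library was left out). Il7r was lost without class 2 replicate 1 (0.154), class 2 replicate 2 (0.118) or class 1 replicate 2 (0.123).

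Among pattern recognition receptors, 2 of 22 were higher, 1 was lower and the median was 0.61, while 3.34% of all genes tested were higher and 5.95% lower. Tlr2, the receptor for bacterial lipopeptides, had 494 and 475 CPM in class 2, against 242 and 238 CPM in class 1 (log2 1.01, SE 0.127, adjusted p = 0.0021). Nlrp3, the inflammasome sensor, had 171 and 107 CPM in class 2, against 40.1 and 33.9 CPM in class 1 (log2 1.91, adjusted p = 0.00387), and was lost without class 1 replicate 2 (0.0544). Clec5a, a receptor that signals through DAP12, was lower, with 74.5 and 81.1 CPM in class 2, against 133 and 139 CPM in class 1 (log2 −0.81, adjusted p = 0.00605), and stood at 0.0532 without class 2 replicate 1, at 0.05 without class 1 replicate 1 and at 0.065 without class 1 replicate 2. Of 28 interferon-stimulated genes 2 were lower and none higher, which is near the shares of all genes, with a median of −0.16. Irf7 (ENSMUSG00000025498), the factor that amplifies type I interferon, had 343 and 366 CPM in class 2, against 850.1 and 848 CPM in class 1 and fell by 1.26 (SE 0.179, adjusted p = 0.00401), in every alternative run. Isg15, a ubiquitin-like interferon target, had 59.6 and 49 CPM in class 2, against 69.1 and 89.7 CPM in class 1 (adjusted p = 0.269) and did not pass. Of 22 inflammatory genes, 1 was higher, Nlrp3, and 2 were lower, Ccl4 and Il1rn, also near the shares of all genes. Il1rn passed, at 0.0496, only without class 1 replicate 2 among the fits without 1 library. Ccl4, a chemokine, had 118 and 119 CPM in class 2, against 221 and 228 CPM in class 1 (adjusted p = 0.00706), and was lost without any 1 of the 4 libraries (0.0524 to 0.0699).

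Transcription factors of the monocyte lineage mostly did not pass the test. Of 30, 4 were higher in class 2 (Cebpa, Klf4, Nr4a1 and Zeb2) and none lower, with a median of 0.26. In the fits without 1 library 0 to 3 of the 30 were higher, none without class 1 replicate 2. Cebpa was lost without any 1 of the 4 (0.0843 to 0.226), Zeb2 without class 1 replicate 1 (0.0892) or class 1 replicate 2 (0.0605), and Nr4a1 as given above. Klf4, which acts in monocyte differentiation, had 367 and 473 CPM in class 2, against 164 and 186 CPM in class 1 (log2 1.26, adjusted p = 0.0103), and was lost without class 2 replicate 2 (0.0729), class 1 replicate 1 (0.102) or class 1 replicate 2 (0.0708). Sfpi1, the gene of PU.1, the lineage factor of myeloid cells, had 837 and 812 CPM in class 2, against 847 and 844 CPM in class 1 (adjusted p = 0.891). Cebpb had 2644 and 2881 CPM in class 2, against 2282 and 2339.6 CPM in class 1 (adjusted p = 0.254). The immediate early genes, which respond to handling of cells within minutes, were abundant in all 4 libraries: Fos had 6198 and 11672 CPM in class 2, against 7309.8 and 9870.2 CPM in class 1 (adjusted p = 0.951). Of 24 immediate early and heat shock genes, 3 were higher in class 2 (Fosb, Klf4 and Nr4a1). Fosb had 306 and 401 CPM in class 2, against 79.8 and 112 CPM in class 1 (log2 1.88, adjusted p = 0.0347), and was lost without any 1 of the 4 libraries (0.0916 to 0.208).

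Lysosomal, NADPH oxidase (median 0.10) and glycolysis genes (median −0.14) were close to the middle of all genes. The median was −0.37 for cholesterol synthesis genes and 0.49 for genes of lipid uptake, storage and efflux. Of 25 lysosomal genes 1 was lower, Cd63, a tetraspanin of late endosomes and granules, with 4.59 and 2.87 CPM in class 2, against 21.9 and 35.7 CPM in class 1 (log2 −2.92, adjusted p = 0.00125), and the median was −0.05. Ctsb, a cathepsin, had 3552 and 3498 CPM in class 2, against 3853 and 3029 CPM in class 1. Of 18 glycolysis genes 2 were higher (Pfkfb3 and Slc16a3) and 2 lower (Gapdh and Tpi1), and of 20 cholesterol synthesis genes 2 were lower (Fdps and Sqle). Without 1 library, none of the glycolysis genes was higher and 0 or 1 was lower. Pfkfb3 (0.087 to 0.129), Slc16a3 (0.0591 to 0.216), Tpi1 (0.0716 to 0.132) and Sqle (0.165 to 0.21) were lost without any 1 of the 4, and Gapdh passed only without class 2 replicate 2 (0.0447). Fdps, which makes farnesyl diphosphate, had 24.2 and 22 CPM in class 2, against 52.1 and 62.9 CPM in class 1 (log2 −1.31, adjusted p = 0.00184), and was lost with 14 libraries (0.164). Abcg1, a cholesterol efflux pump, was higher, with 60.2 and 69.2 CPM in class 2, against 16 and 22.9 CPM in class 1 (log2 1.73, adjusted p = 0.00544), and was lost without class 1 replicate 1 (0.0535). Of 6 NADPH oxidase genes, Cybb, the catalytic chain, was higher, with 3216 and 4015 CPM in class 2, against 2462 and 2310.3 CPM in class 1 (log2 0.60, adjusted p = 0.0482), and was lost without class 2 replicate 2 (0.205), class 1 replicate 1 (0.17) or class 1 replicate 2 (0.248) and with 14 libraries (0.0621).

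The higher and the lower genes had different median transcript lengths. The median longest transcript was 5465 bases for the higher genes, against 2742.5 bases for the lower genes and 3169 bases for all tested genes, while the median GC content was 49.97%, 49.1% and 49.7%. Without the mitosis and DNA replication lists the lower genes had a median of 2678 bases. The part of transcript length in the result was not tested.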

How the data were processed

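Bulk RNA sequencing of primary monocytes was deposited by the authors as raw read counts for 37620 genes, 1 column per library. The build was mm9 and the tools were STAR 2.7.3a and HTSeq 0.6.0, per the submitters' processing notes. The strand setting and annotation release are not given in the sources used here. Groups were taken from the sample titles. In the table, 1 column matched no sample and was not used.

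The 8 libraries of the 4 classes were fitted together with edgeR 4.0.16 (limma 3.58.1, R 4.3.3). The function filterByExpr (minimum count 10) selected the genes, so that some passed through class 3 or class 4 alone. Libraries were scaled by TMM, and 2-sided quasi-likelihood F tests of class 2 minus class 1 were adjusted by Benjamini-Hochberg over 13686 genes, with a threshold of 0.05 and residual degrees of freedom of 4. The coefficient of variation among replicates, which edgeR names biological, was 0.377 over the 4 classes. Fold changes use edgeR's fitted values and log2 CPM a prior count of 2. The script was tested on simulated data. Replicates of a class differed by more than sampling noise (chi-square per degree of freedom 74.3 in class 2, 35.5 in class 1, 39.2 in class 3 and 82.8 in class 4). Same-numbered libraries did not deviate together (correlations of deviations between classes from −0.01 to 0.07), so the numbers were not taken to pair them. With 2 libraries per class, a shared animal or batch is not excluded.

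The gene lists, the members and the naming rule were chosen with earlier results of these data known. The rule names Csf1r, Ly6c2, Ccr2, Cx3cr1, Nr4a1, Kit, Cd34, Mpo and Hoxb8, in each direction the 15 called genes that changed most (at least 3 in mean log2 CPM, ranges that do not overlap, predicted genes and pseudogenes skipped), and for each list at most 3 called members plus its most expressed member without a call. Other members given as examples were chosen after their values were seen. No list was tested as a set. Symbols are those of the files. Near-identical copies (Hba-a1 and Hba-a2, Hbb-b1 and Hbb-b2, Ly6c1 and Ly6c2, Hspa1a and Hspa1b, Chi3l3) share reads, and genes that overlap on opposite strands may, so their counts are uncertain. Transcript lengths and GC were matched by gene ID from a later mouse annotation, for 98.7% of the higher, 98.9% of the lower and 96.2% of all tested genes. Promoters came from RefSeq on GRCm38.p6, the first listed start per gene, with no coordinate carried over from mm9.

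The fit was repeated with size factors from DESeq2, with DESeq2 1.42.0 as the test, without a filter, with 50 as the minimum count, with the 4 libraries alone, with all 14 primary libraries, with a replicate block and without each library in turn. Scaling by total counts alone and removal of Lars2, Gm15564 and Mir5115 were added after the data were seen.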

Additional observations from a re-analysis of the deposited data

How the results depend on the processing

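Against 457 higher and 815 lower genes, DESeq2 called 866 and 1368, no filter on low counts 1062 and 1263, the 4 libraries alone 1060 and 1153, and all 14 primary libraries 180 and 392. Leaving out 1 library gave 73 to 176 higher and 396 to 480 lower genes; the class left with 1 library was then assumed to vary like the other classes. The fewest higher genes remained without class 1 replicate 2. DESeq2 size factors (413 and 843), a minimum count of 50 (528 and 905), total count scaling (351 and 919) and removal of Lars2, Gm15564 and Mir5115 (455 and 815) stayed within 1.5 times. The cause of these shifts was not tested. With the replicate number as a block, 480 genes were higher and 753 lower. Same-numbered libraries of class 2 and class 1 had deviations that correlated by only 0.07. With 2 libraries per class this cannot tell whether they shared an animal or batch, and the labels name neither. Of 135 named genes none reversed direction in any alternative. Of the 101 called, 37 passed in every alternative and 44 in all 4 fits without 1 library, while 57 lost the call in at least 1 of these. The fit of all 14 libraries ended 42 calls, the block 7 (among them Cd34 at 0.0764, Cx3cr1 at 0.0657, Cybb at 0.0592, Vwf at 0.0531 and Sqle at 0.0516), DESeq2 size factors 2, and DESeq2 and the total count scaling none. The mitosis list had 25 of 25 members lower in every alternative except the fit of 14 libraries, with 23. With 2 libraries per class, differences of single genes rest on few samples, and genes with few counts are poorly resolved at this depth.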

Other observations

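The class 2 and class 1 levels can be set beside the 6 libraries of nonclassical, intermediate and classical monocytes, with all 14 primary libraries scaled together. Over 13675 genes, the class 2 minus class 1 difference had a Spearman correlation of −0.17 with the nonclassical minus classical difference (Pearson −0.20). This is a description across genes of libraries that share no sample, and genes are not independent replicates. Of the genes higher in class 2, 19.04% stood higher in nonclassical than in classical monocytes, against 45.3% of all genes. Of the genes lower in class 2, 66.9% stood lower in nonclassical monocytes, against 54.2% of all genes. Single genes show both patterns. Thbs1 had 1361 and 894 CPM in class 2, 213 and 196 CPM in class 1, 0 and 1.02 CPM in nonclassical and 886 and 568 CPM in classical monocytes, so that the higher class 2 level lay on the classical side. Nr4a1 had 1116 and 1341 CPM in class 2, 672 and 539 CPM in class 1, 3293 and 3658 CPM in nonclassical and 423 and 420.0 CPM in classical monocytes, and lay on the nonclassical side. C1qa had 3.2 and 2.36 CPM in class 2, 187 and 138 CPM in class 1, 119 and 57.7 CPM in nonclassical, 169 and 96.6 CPM in intermediate and 0.319 and 0.825 CPM in classical monocytes. Summed over the mitosis list, the level was 404 and 489 CPM in class 2, 4459 and 4667 CPM in class 1, 956 and 776 CPM in nonclassical, 2524 and 2760 CPM in intermediate and 5643 and 6199 CPM in classical monocytes.

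Irf7 was highest in class 1 of all primary groups, with 346 and 362 CPM in class 2, 840.0 and 824 CPM in class 1, 179 and 192 CPM in nonclassical and 203 and 164 CPM in classical monocytes. The summed level of the 28 interferon-stimulated genes was 6505 and 5692 CPM in class 2 and 6527 and 6151 CPM in class 1, and both classes were above the 10 other primary libraries, which ran from 1295 to 3712 CPM. The lists not described above had few calls. Of 21 phagocytic and scavenger receptors 1 was higher in class 2 (Itgam) and 2 were lower (Axl and Fcgr2b), of 20 C-type lectin and Siglec receptors 2 were higher (Clec4a1 and Cd33) and 1 lower (Clec5a), of 10 Ms4a genes 2 were lower (Ms4a3 and Ms4a6d), and of 16 genes of lipid uptake, storage and efflux 2 were higher (Lrp1 and Abcg1) and 1 lower (Nr1h3). Without any 1 of the 4 libraries Fcgr2b (0.0861 to 0.185), Cd33 (0.0919 to 0.194) and Ms4a6d (0.0653 to 0.107) lost their calls, Clec5a passed only without class 2 replicate 2 and Itgam only without class 2 replicate 1, and Abcg1 was lost without class 1 replicate 1 (0.0535).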
